A study of Mus musculus with 13 samples.

Results

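The genes described here are 3 Egr transcription factors (Egr1, Egr2, Egr3), 2 corepressors that bind them (Nab1, Nab2), 4 dual-specificity phosphatases (Dusp2, Dusp5, Dusp6, Dusp10) and Spry1. They are 10 of the 47937 genes in the table of read counts, and all 10 were found in it. They were chosen by name as a readout of pre-TCR signal, and Nab2 was picked on its high rank between the stages in the KO-labelled mice, so the DN4 against DN3 values of those mice are given below without a test. RNA was sequenced from thymocytes of C57BL/6 mice, sorted at the double negative stages DN3 and DN4, which come before and after β-selection. WT;Lck-Cre+ mice are called Wt, and Opa1fl/fl;Lck-Cre+ mice, labelled OPA1 KO, are called KO-labelled. Both carry Cre under the Lck promoter, which is active in developing T cells, so Cre is shared by all groups; OPA1 is the inner mitochondrial membrane protein of fusion and cristae shape. The study used mice between 6 and 8 weeks of age, without treatment. There were 13 libraries from 7 mice: both stages were sequenced from 3 KO-labelled mice (KO45, KO49, KO51) and 3 Wt mice (WT05, WT46, WT48), and only DN4 cells from 1 more Wt mouse, WT40.

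When a thymocyte makes a functional TCRβ chain, the pre-TCR signals through Lck, ZAP70 and Ras to the kinase ERK. ERK activates factors at serum response elements, and Egr1, Egr2 and Egr3 are among the first genes to be transcribed; they promote passage through β-selection, in part by inducing Id3. The pathway also induces its own brakes: Nab1 and Nab2 repress Egr-driven transcription, Dusp phosphatases remove phosphate from MAP kinases, and Sprouty proteins damp the step from receptor to Ras.

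Stretches of promoters are printed before the values, because serum response elements and Egr sites are the known routes of this loop. They come from RefSeq (GRCm38.p6), as windows of 300 bases around a transcription start; 8 of the 10 genes had one (Egr2 had 5), and Egr1 and Egr3 did not. Positions are counted from the start, with -1 as the last base before it, and both strands were searched. The Egr binding motif (GCGNGGGCG) was in 5.55% of all 32851 windows and in those of 2 of the 8 genes, Nab1 and Dusp2. The CArG box, the core of the serum response element, was in 1.63% of all windows and in those of 2 of the 8 genes, Egr2 and Dusp5. The cyclic AMP response element (TGACGTCA, 1.79% of windows), the AP-1 site (TGANTCA, 7.81%) and an Ets site (CCGGAAG, 8.86%) were in none of the 8. The searched motifs do not overlap in the matches found, and a match is a run of letters, not a measured site. Capitals below mark the matches, and every stretch is written 5′ to 3′ on the strand of its gene. Egr2 (chr10:67537739-67537838, plus strand) and Dusp5 (chr19:53529015-53529104, plus strand) are shown for their CArG boxes, of which Dusp5 has 2 side by side. Another Egr2 window holds a different CArG box (chr10:67537494-67537503), which is not shown. The Egr2 stretch lies within the annotated gene but in none of its exons, and the Dusp5 stretch is upstream of the gene and inside an exon of AC137853.2, an antisense gene.
Egr2: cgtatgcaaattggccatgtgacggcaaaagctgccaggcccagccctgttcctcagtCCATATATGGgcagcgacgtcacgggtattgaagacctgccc
Dusp5: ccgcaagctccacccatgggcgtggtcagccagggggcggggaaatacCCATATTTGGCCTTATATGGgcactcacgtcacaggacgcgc

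Dusp2 (chr2:127336029-127336108, plus strand) and Nab1 are shown for the Egr motif. The Dusp2 stretch is upstream of the gene and overlaps no annotated exon. Nab1 (minus strand of chromosome 1) had 3 matches, at -141, -109 and -38, all inside its first exon as GENCODE annotates it, and each is given with its flanks only (chr1:52500573-52500597, chr1:52500541-52500565 and chr1:52500470-52500494).
Dusp2: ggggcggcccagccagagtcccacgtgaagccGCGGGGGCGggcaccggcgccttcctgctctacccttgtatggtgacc
Nab1 at -141: cccgcggcCGCCCACGCcgggatct
Nab1 at -109: tcggccgcGCGTGGGCGggagccgg
Nab1 at -38: ggggcgggGCGGGGGCGgcggaggt

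Nab2 is shown as the gene the choice rested on. None of the 5 motifs was in its window, of which chr10:127666714-127666853 (minus strand) is given; it lies within the annotated gene, in none of its exons.
Nab2: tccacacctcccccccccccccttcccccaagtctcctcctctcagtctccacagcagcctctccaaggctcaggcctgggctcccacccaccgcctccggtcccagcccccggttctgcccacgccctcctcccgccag

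Libraries held 5926848 to 14148661 counts, and the scarcest gene, Egr3, had 4 to 10 counts in each DN3 library and 71 to 363 in each DN4 library. Levels are CPM, which are counts scaled to a common library size after TMM correction. The DN3 library of WT05 stood apart, with 35.5% of its counts in ribosomal RNA-like genes against 0.395 to 1.58% elsewhere. The sum of the 8 DN3 markers was higher in every DN3 than in every DN4 library (3463 to 4804 against 857 to 2391 CPM). Singly, 5 of the 8 were lower in every Wt DN4 than in every Wt DN3 library and passed the test, while Rag1, Rag2 and Dtx1 overlapped and did not. Opa1 did not separate the genotypes: its level was 98.1 ± 11.7 CPM (SD, n = 3) in Wt and 90.5 ± 2.8 CPM (n = 3) in KO-labelled DN3 cells, and 88.9 ± 3.9 (n = 4) against 82.0 ± 5.5 CPM (n = 3) in DN4 cells, with overlapping ranges at both stages. A count over the whole gene need not fall where an allele loses some of its exons, and which exons the floxed allele loses is not given in the sources used here. The share of counts in mitochondrial protein-coding genes did separate the labelled groups, at 0.833 to 1.17% in KO-labelled and 1.24 to 1.94% in Wt DN3 libraries and at 0.532 to 0.681% and 1.29 to 1.79% in DN4 libraries. The DN4 libraries also held more RNA of B cell genes: the 8 B cell markers, with Cd79a and Pax5, summed to 21.8 to 56.6 CPM in the DN3 libraries and to 1777, 364, 492 and 3411 CPM in DN4 of WT05, WT40, WT46 and WT48 and 1182, 2039 and 261 CPM in DN4 of KO45, KO49 and KO51. Ebf1, with 3 counts or fewer in every KO-labelled DN3 library, was the only one of the 8 at that limit in a group. The study's flow cytometry of DN subsets gated on lineage-negative, CD4 and CD8 negative thymocytes, a gate that would remove B cells and double positive cells; the gate of the sort for RNA is not given in the sources used here. In bulk RNA, fewer cells of a type and less RNA per cell cannot be told apart.

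**Figure D1:**
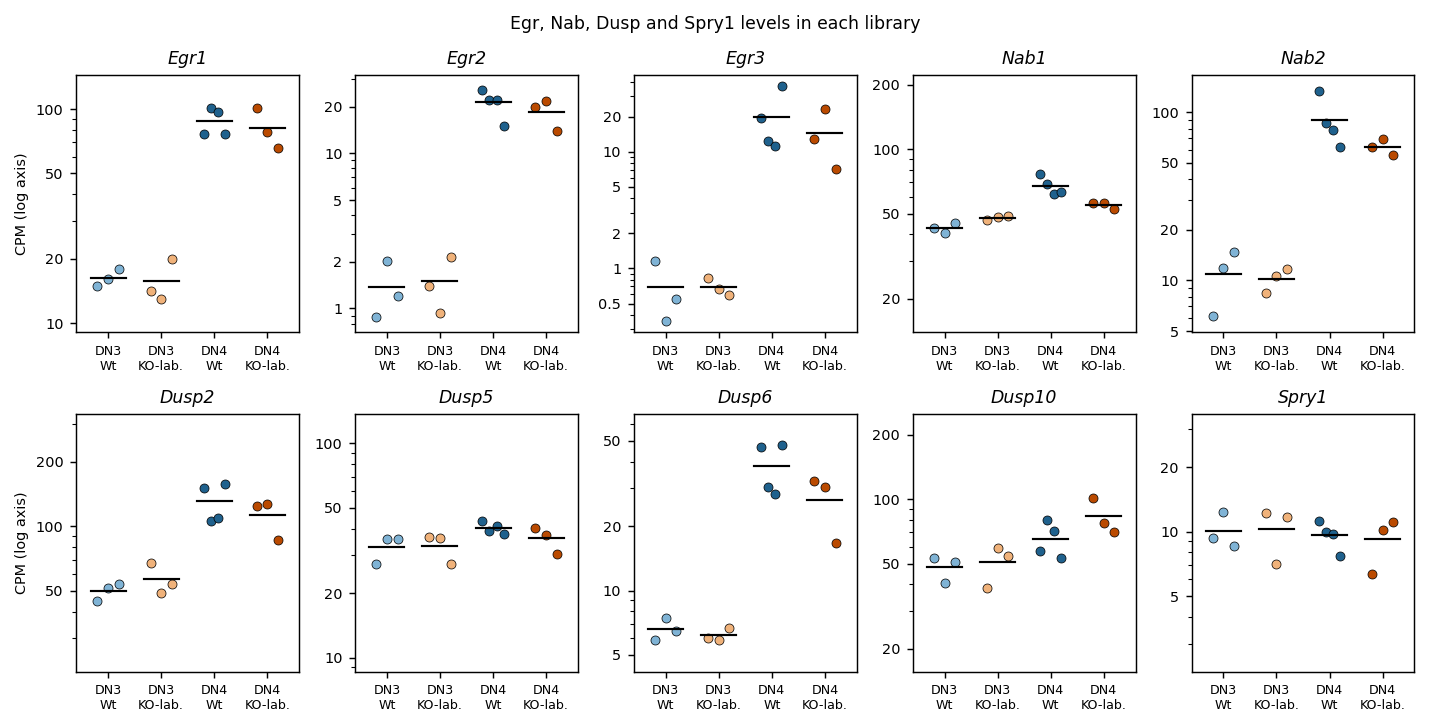
Level of each gene in every library, as CPM on a log axis with its own range per panel; points are libraries by group, lines group means. Egr1, Egr2, Egr3, Nab1, Nab2, Dusp2 and Dusp6 sit higher in all 7 DN4 libraries than in any DN3 library, while Spry1, Dusp5 and Dusp10 overlap between the stages.

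Between DN3 and DN4 in Wt mice, 7 of the 10 genes rose and none fell: Egr1, Egr2, Egr3, Nab1, Nab2, Dusp2 and Dusp6. Over all 12691 genes tested, 13.4% were called higher by edgeR's quasi-likelihood test with a Benjamini-Hochberg adjusted p under 0.05. The median fitted log2 fold change was 1.88 over the 10 genes and -0.03 over all genes tested. With the B cell markers as a covariate, 2 of the 10 and 0.812% of all genes were called higher and the median of the 10 was 1.23, and with a filter of 10 counts in every library, which leaves out Egr2 and Egr3, that median was 1.01 and 5 of the 10 were called higher, beside 10.2% of all genes. The covariate was itself higher in every DN4 than in every DN3 library. A call lost with it, here or below, therefore cannot separate stage from these markers. Egr2 and Egr3 passed the filter on low counts only with the DN4 libraries, where they are high, so the count and the median over the 10 genes are no support in themselves. Every DN4 library lay above every DN3 library for 9 of the 10 genes, against 20.0% of all genes.

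The Egr factors were called higher in DN4, Egr1 with 51 to 181 counts in each DN3 library and Egr2 and Egr3 with few counts in DN3. Egr1, the most abundant of the 3, was at 14.9, 16.0 and 17.8 CPM in DN3 of WT05, WT46 and WT48 and at 76.2, 101, 97.2 and 76.7 CPM in DN4 of WT05, WT40, WT46 and WT48. The lowest DN4 library was thus far above the highest DN3 library, and the fitted log2 fold change was 2.40 (SE 0.156, edgeR adjusted p = 6.96e-05). Egr2, which acts beside Egr1 and Egr3 in β-selection, was at 0.877, 2.03 and 1.21 CPM in DN3 and at 25.8, 22.2, 22.1 and 15.1 CPM in DN4, in the same order of mice. Its DN3 counts were 3, 23 and 11, the groups did not overlap, and its log2 fold change was 3.81 (SE 0.318, edgeR adjusted p = 0.000173). Egr3 was at 1.17, 0.354 and 0.550 CPM in DN3 and at 19.6, 12.4, 11.3 and 36.8 CPM in DN4. It also had the largest error, with a log2 fold change of 5.08 (SE 0.634, edgeR adjusted p = 0.00107) and a DN4 SD of 11.8 on a mean of 20.0 CPM. Since Egr3 had 4 to 5 counts in each Wt DN3 library, the filter could let it in only where DN4 was high, and its p is no independent evidence of the rise; with every gene of 1 count or more it was also called, as was Egr2 (edgeR adjusted p = 7.83e-05 and 9e-06). Its DN4 level was highest in the libraries richest in B cell markers, and with these as a covariate its log2 fold change was 2.22 (SE 0.785) and not called.

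The Nab corepressors changed unequally. Nab2, itself an Egr target that represses Egr-driven transcription, was at 6.14, 11.9 and 14.7 CPM in DN3 of WT05, WT46 and WT48 and at 134, 86.2, 78.5 and 62.3 CPM in DN4 of WT05, WT40, WT46 and WT48. WT05 had both the lowest DN3 and the highest DN4 level, so within single mice the rise was 21.8-fold in WT05, 6.58-fold in WT46 and 4.23-fold in WT48. The DN3 level of WT05 rests on 21 counts, in the library with 35.5% of its counts in ribosomal RNA-like genes. The fitted log2 fold change was 2.96 (SE 0.343, edgeR adjusted p = 0.000763). With the B cell markers as a covariate it was 2.84 (SE 0.920) and not called (edgeR adjusted p = 0.225). Exons of 3 genes on the opposite strand share bases with those of Nab2: 1050 of its 2941 exon bases with Gm16229, 151 with Nemp1 and 40 with Stat6. The kit kept strand, the strand setting of the counting is not given in the sources used here, and Gm16229 had at most 0.584 CPM in any library. Nab1, already well expressed in DN3, was at 43.0, 40.7 and 45.1 CPM in DN3 and at 76.5, 69.2, 61.7 and 63.3 CPM in DN4. The groups were apart although the change was small, with a log2 fold change of 0.63 (SE 0.115, edgeR adjusted p = 0.00576). With library totals in place of TMM, which put the median of all genes at 0.16 on the log2 scale, Nab1 did not pass the threshold (edgeR adjusted p = 0.0613), nor in the fit that has B cell markers as a covariate (0.583); under the other alternatives its adjusted p was 4.96e-05 to 0.0314.

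Of the phosphatases, Dusp6 and Dusp2 rose. Dusp6, a cytoplasmic phosphatase selective for ERK, was at 5.84, 7.42 and 6.49 CPM in DN3 and at 46.8, 30.4, 28.1 and 47.8 CPM in DN4, with a log2 fold change of 2.49 (SE 0.253, edgeR adjusted p = 0.000398). Dusp2, a nuclear phosphatase of ERK and p38 that carries an Egr motif in the stretch above, was at 44.7, 51.7 and 53.8 CPM in DN3 and at 151, 106, 109 and 157 CPM in DN4. The log2 fold change of Dusp2 was 1.36 (SE 0.177, edgeR adjusted p = 0.00128). In both, WT05 and WT48 were the higher pair of DN4 libraries, and these are the 2 Wt libraries with the most B cell marker RNA. With the B cell markers as a covariate neither was called, at log2 fold changes of 0.23 (SE 0.311) for Dusp2 and 0.98 (SE 0.376) for Dusp6. That covariate follows the stage, so this fit cannot separate stage from the markers. Dusp5, a nuclear phosphatase specific for ERK, ranged from 27.5 to 35.8 CPM in DN3 and from 37.6 to 43.3 CPM in DN4. Its log2 difference of 0.26 (SE 0.133) did not pass the test (edgeR adjusted p = 0.207), and 547 of its 2473 exon bases are shared with an antisense gene, AC137853.2. Dusp10, which acts on p38 and JNK rather than ERK, ranged from 40.5 to 53.2 CPM in DN3 and from 53.4 to 79.8 CPM in DN4. Its log2 difference was 0.42 (SE 0.172, edgeR adjusted p = 0.116), and within WT05, WT46 and WT48 its ratio of DN4 to DN3 was 1.08, 1.75 and 1.05.

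Spry1, an inhibitor of receptor signalling to Ras, gave no difference: it ranged from 8.58 to 12.4 CPM in DN3 and from 7.70 to 11.2 CPM in DN4. The fitted log2 difference was -0.10 (SE 0.213, edgeR adjusted p = 0.791), and 710 of its 2906 exon bases are shared with Gm42922 on the other strand, which reached at most 0.584 CPM. Leaving out the DN3 library of WT46 turned the sign of this small difference (0.089).

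Per kilobase of annotated exon, which allows levels of different genes to be compared, the order changed between the stages. In Wt DN3 cells Dusp2 stood highest at 25.0 ± 2.4 CPM per kb (SD, n = 3), followed by Dusp10 at 15.8, Dusp5 at 13.3 and Nab1 at 10.5 CPM per kb. Nab2 at 3.72, Egr1 at 3.62 and Spry1 at 3.48 CPM per kb did not differ beyond their SDs, nor did Dusp10 from Dusp5, nor Egr2 at 0.404 from Egr3 at 0.157 CPM per kb; Dusp6 stood between at 2.10 CPM per kb. In Wt DN4 cells Dusp2 was still highest at 65.4 ± 13.5 CPM per kb (SD, n = 4), and Nab2 had moved to the second place at 30.7 ± 10.5 CPM per kb. Dusp10 at 21.5, Egr1 at 19.6, Nab1 at 16.5, Dusp5 at 16.3 and Dusp6 at 12.2 CPM per kb followed, and from Nab2 to Dusp5 each gene lay within the SDs of the next. Egr2 at 6.26, Egr3 at 4.54 and Spry1 at 3.32 CPM per kb came last, each within the SDs of its neighbour.

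In the KO-labelled mice, whose stage comparison was in view when the genes were chosen, the values are a description. Egr1 was at 14.2, 13.02 and 19.9 CPM in DN3 and at 101, 78.5 and 65.4 CPM in DN4 of KO45, KO49 and KO51, a log2 difference of 2.35 (SE 0.211). Nab2 was at 8.40, 10.6 and 11.8 CPM in DN3 and at 61.9, 69.3 and 55.8 CPM in DN4, a log2 difference of 2.58 (SE 0.161). The ratio of DN4 to DN3 for Nab2 was 7.37 in KO45, 6.51 in KO49 and 4.75 in KO51. The wider spread in Wt mice came from WT05 (21.8, on 21 DN3 counts), as WT46 and WT48 were at 6.58 and 4.23. Egr2 (log2 difference 3.58, SE 0.332), Egr3 (4.33, SE 0.522), Dusp6 (2.08, SE 0.271), Dusp2 (0.96, SE 0.192), Dusp10 (0.69, SE 0.186) and Nab1 (0.17, SE 0.097) were also higher in each of the 3 DN4 than in each of the 3 DN3 libraries. Dusp5 (0.09, SE 0.167) and Spry1 (-0.20, SE 0.308) overlapped. Thus 8 of the 10 genes had DN4 libraries all above the DN3 libraries, beside 22.0% of all 12580 genes of that fit, from which nothing is read here because that contrast was in view.

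**Figure D2:**
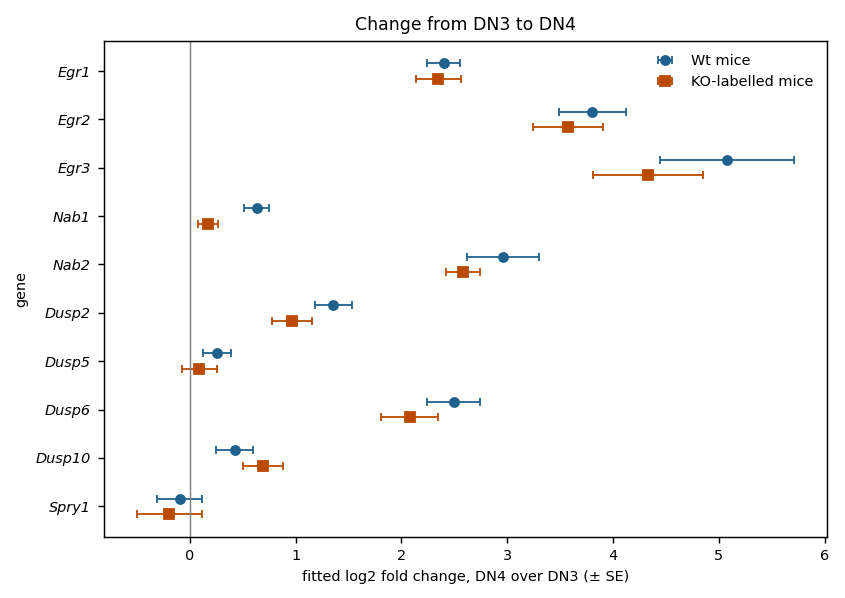
Fitted log2 fold change from DN3 to DN4 for each gene, with standard errors, in Wt mice (circles) and KO-labelled mice (squares). The 3 Egr genes, Nab2 and Dusp6 lie above 2 in both, Nab1 is at 0.63 and 0.17, and Spry1 is just below 0 in both.

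The difference between the stage changes of KO-labelled and Wt mice was negative for 9 of the 10 genes, and is given without a test because it contains the contrast the choice rested on. It was -0.46 (SE 0.143) for Nab1, -0.38 (SE 0.398) for Nab2, -0.41 (SE 0.377) for Dusp6, -0.39 (SE 0.270) for Dusp2 and -0.74 (SE 0.929) for Egr3, all on the log2 scale. For Egr1 the difference was -0.05 (SE 0.268) and for Dusp10, the one positive value, 0.26 (SE 0.277).

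Other genes of the pathway were taken from lists written with earlier results of these data known, and their counts stand beside the 13.4% of all genes called higher. Of 17 other immediate early genes, 13 were tested between the stages in Wt mice; 8 rose, none fell, and the median log2 fold change was 1.31. Ier3, too scarce for that test (means of 1.49 CPM in DN3 and 0.268 CPM in DN4), was called lower under 5 alternatives, one of them without the DN3 library of WT05. The orphan nuclear receptors Nr4a3 (3.15 to 35.4 CPM, log2 fold change 3.51, SE 0.421, edgeR adjusted p = 0.000899) and Nr4a1 (22.6 to 147 CPM, 2.67, SE 0.238, edgeR adjusted p = 0.000231), both induced by antigen receptor signal, had the largest fitted changes, followed by Ier5 (2.49) and the AP-1 subunit Fosl2 (2.42). Fos, Fosb and Jun, named here after their values were seen, did not pass: Fos was at a mean of 21.9 CPM in DN3 and 53.7 CPM in DN4 with an SE of 0.725 on a log2 difference of 1.31 (edgeR adjusted p = 0.237), and Fosb and Jun had log2 differences of -0.49 (SE 0.992) and -0.18 (SE 0.602). Of 9 heat shock genes, which also respond to tissue dissociation, 7 were tested, none rose, and Hspe1 (log2 fold change -0.47, edgeR adjusted p = 0.0302) and Hspd1 (-0.53, edgeR adjusted p = 0.042) fell, where 9.43% of all genes were called lower. Leaving out any 1 library left 0 or 1 heat shock gene called lower, and the paired fit left 0.

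Among the feedback genes outside the 10, Dusp4, a nuclear phosphatase, was the 1 of 5 tested MAPK phosphatases that rose, beside 13.4% of all genes (9.83 to 28.3 CPM, log2 fold change 1.48, SE 0.179, edgeR adjusted p = 0.000923). With the mouse as a block, 2 of the 5 were called higher, beside 12.4% of all genes. Among feedback inhibitors of the Sprouty and Spred family, 2 of 5 tested were called higher, against the same 13.4%: Spry2 from 2.21 to 12.7 CPM (log2 fold change 2.42, SE 0.333, edgeR adjusted p = 0.00166) and Spry4 from 0.567 to 4.13 CPM (2.70, SE 0.446, edgeR adjusted p = 0.00374), while Spry1 did not. Neither would have passed the filter on its Wt DN3 counts (5 to 30 for Spry2 and 1 to 8 for Spry4), nor would Mapk11 below (3 to 30), so these calls are no independent evidence; all 3 were also called with every gene of 1 count or more. Of the genes of the Ras and ERK cascade, 4 of 21 rose, beside the 13.4% of all genes called higher, none fell, and the median log2 fold change was 0.12. The 4 were Rasgrp1, the exchange factor that loads Ras in thymocytes (log2 fold change 1.29, edgeR adjusted p = 0.000435), the Ras GTPase activators Rasa1 (0.78, edgeR adjusted p = 0.0144) and Rasal3 (0.58, edgeR adjusted p = 0.0337), and the ternary complex factor Elk3 (0.82, edgeR adjusted p = 0.0137). Without the DN3 library of WT48, 2 of the 21 and 8.68% of all genes were called higher. Of 10 tested genes of the JNK and p38 cascade 1 was called higher, beside 13.4% of all genes: Mapk11, a p38 kinase, went from 1.65 to 37.7 CPM (log2 fold change 4.33, SE 0.467, edgeR adjusted p = 0.000515), and 2 were called without the DN3 library of WT05, beside 14.3% of all genes. Of 6 genes linked to Egr or pre-TCR signal, 5 rose, beside 13.4% of all genes, among them Tnfrsf9 (log2 fold change 4.04, SE 0.310, edgeR adjusted p = 0.000114), the inhibitory receptor Cd5 (2.75, SE 0.296, edgeR adjusted p = 0.000508), the activation marker Cd69 (2.27, SE 0.245, edgeR adjusted p = 0.000522) and the Egr target Id3 (1.80, SE 0.303, edgeR adjusted p = 0.00408).

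**Figure D3:**
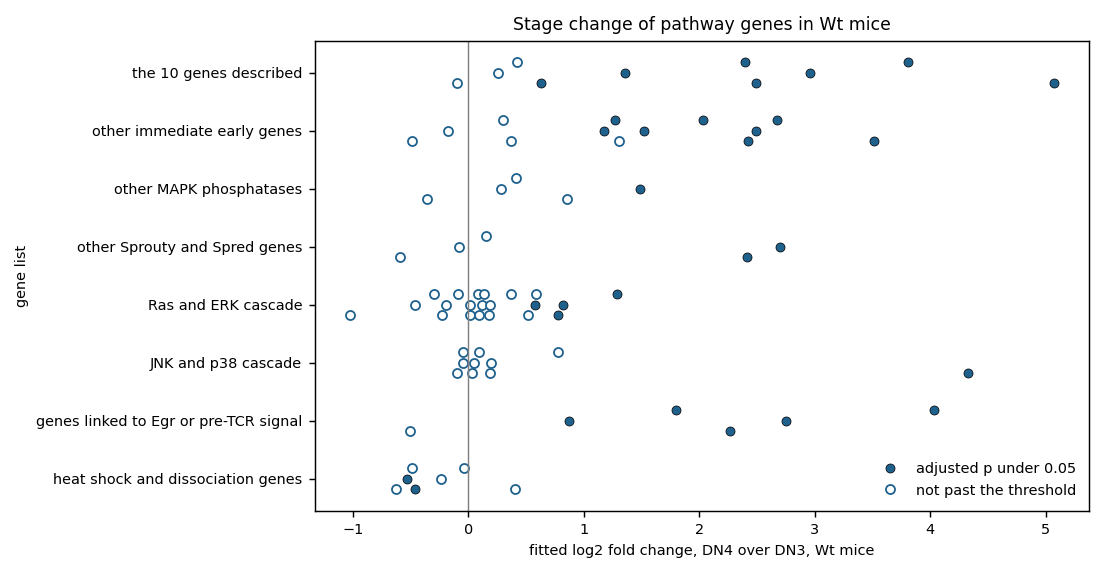
Fitted log2 fold change from DN3 to DN4 in Wt mice for each tested gene of each list; filled points pass an adjusted p of 0.05, open points do not, and vertical offsets within a list only separate points. Called genes reach 5.08 among the 10 genes described and 3.51 among the other immediate early genes, and the median of the Ras and ERK cascade is 0.12.

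The profiles over the 13 libraries were compared with those of 13361 genes by the root mean square difference of centred log2 CPM. Egr1 was most like Itgb2 (0.232), Nr4a1 (0.280) and Gramd1a (0.301). Nab2 was most like Nrgn (0.318), Aplp1 (0.347) and Nr4a1 (0.349), so Nr4a1 was near both. Egr2 was nearest to A430093F15Rik (0.304), Tnfrsf9 (0.358) and Pdgfb (0.382), and Egr3 to Cnr2 (0.311), Gm8369 (0.365) and Klf2 (0.367). Dusp6 was nearest to Stk17b (0.198) and Nedd9 (0.198), and Dusp2 to Cdc42se1 (0.120), Vasp (0.133) and Ly9 (0.134). The flatter genes had closer neighbours, such as Pdcd10 (0.082), Rspry1 (0.085) and Serinc1 (0.087) for Nab1 and Tmem192 (0.075), Arhgap15 (0.097) and Atp6v1d (0.103) for Dusp5. Dusp10 was nearest to Ccnd3 (0.165), Sec22c (0.178) and Racgap1 (0.18), and Spry1 to Ttc32 (0.186), A430033K04Rik (0.199) and Pgm2 (0.210).

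The levels of Egr3 and Dusp2 followed the B cell markers among the 7 DN4 libraries, and the relation did not pass the test for the other 8 genes. Over these 7 libraries, and 10 relations tested, log2 CPM of Egr3 and the log2 sum of the 8 markers had a Pearson r of 0.934 (exact permutation p = 0.00298, adjusted 0.0149) and a Spearman rho of 0.964 (exact permutation p = 0.00278, adjusted 0.0139). Dusp2 had an r of 0.941 (exact permutation p = 0.00238, adjusted 0.0149) and a rho of 0.964 (exact permutation p = 0.00278, adjusted 0.0139). Without the 2 libraries farthest from the median marker sum on the log2 scale, DN4 of KO51 and of WT40, both at its low end, r was 0.934 for Egr3 and 0.883 for Dusp2. Dusp6 had an r of 0.819 (exact permutation p = 0.0179, adjusted 0.0597), a rho of 0.714 (exact permutation p = 0.0881, adjusted 0.294) and an r of 0.726 without those 2 libraries. For Egr1, Egr2 and Nab2, r was -0.14, 0.12 and 0.14 (adjusted exact permutation p = 0.795 for each) and rho -0.11, 0.04 and 0.14. Without the same 2 libraries their r was -0.80, -0.47 and -0.09, so these values rest on few libraries. The groups of 4 and 3 libraries are too small for a value within each genotype.

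Without the 2 Wt DN4 libraries with over 1000 CPM of the markers, WT05 and WT48, a choice made after the data were seen, 8 of the 10 genes and 8.59% of all 12848 tested were called higher, now with Dusp10 (log2 fold change 0.63, edgeR adjusted p = 0.0486, against 0.116 with all libraries and 0.0727 to 0.316 under the other alternatives). Egr3 then had a log2 fold change of 4.30 (SE 0.450) and Dusp2 of 1.08 (SE 0.126), with edgeR adjusted p of 0.00317 and 0.00461. With the mean log2 CPM of the markers as a covariate, which is itself higher in every DN4 than in every DN3 library, 2 of the 10 genes (Egr1 and Egr2) and 103 of all 12691 genes were called higher. Markers of other cells were summed in the same way. For 7 genes of immature single positive and double positive cells the sums were 920 to 3517 CPM in DN4 against 204 to 310 CPM in DN3 libraries. For 5 γδ T cell genes, with Il23r at 3 counts or fewer in every group, they were 505 to 1485 against 370 to 527 CPM and overlapped, DN4 of KO45 lying below DN3 of the same mouse. For 5 genes of plasmacytoid dendritic cells they were 522 to 982 against 258 to 463 CPM. Most of this was Ccr9 (means of 173 CPM in Wt DN3 and 574 CPM in Wt DN4), which developing T cells also express. Irf8 had the largest fitted change of the list, from 9.85 to 93.4 CPM in Wt mice (log2 fold change 3.18, SE 0.698, edgeR adjusted p = 0.0127). Its groups did not overlap. Bst2 and Tcf4 had log2 differences of -0.71 and -0.46 that did not pass. Siglech had 3 counts or fewer in every DN3 and every Wt DN4 library. In Wt mice 7 of 7, 4 of 4 and 2 of 4 tested genes of these lists were called higher in DN4, beside 13.4% of all genes; Zbtb16, a γδ T cell gene with at most 3 counts in a Wt DN3 library, entered the test only through DN4. The summed NK and innate lymphoid genes (195 to 391 against 226 to 297 CPM over 6 genes) were mostly Gzma. Prf1, Eomes and Klrb1c had mean levels of 0.325, 0 and 0 CPM in Wt DN3 and 12.1, 5.68 and 2.47 CPM in Wt DN4; they had at most 4 counts in any Wt DN3 library and entered the test only through DN4, so their calls are not counted here. Sums of 6 myeloid genes (44.9 to 64.9 against 35.4 to 58.3 CPM), 5 erythroid genes (0.995 to 6.18 against 0 to 1.41 CPM) and 6 stromal genes (119 to 246 against 112 to 190 CPM) overlapped between the stages. The part of these markers' cells in the results was not tested.

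**Figure D4:**
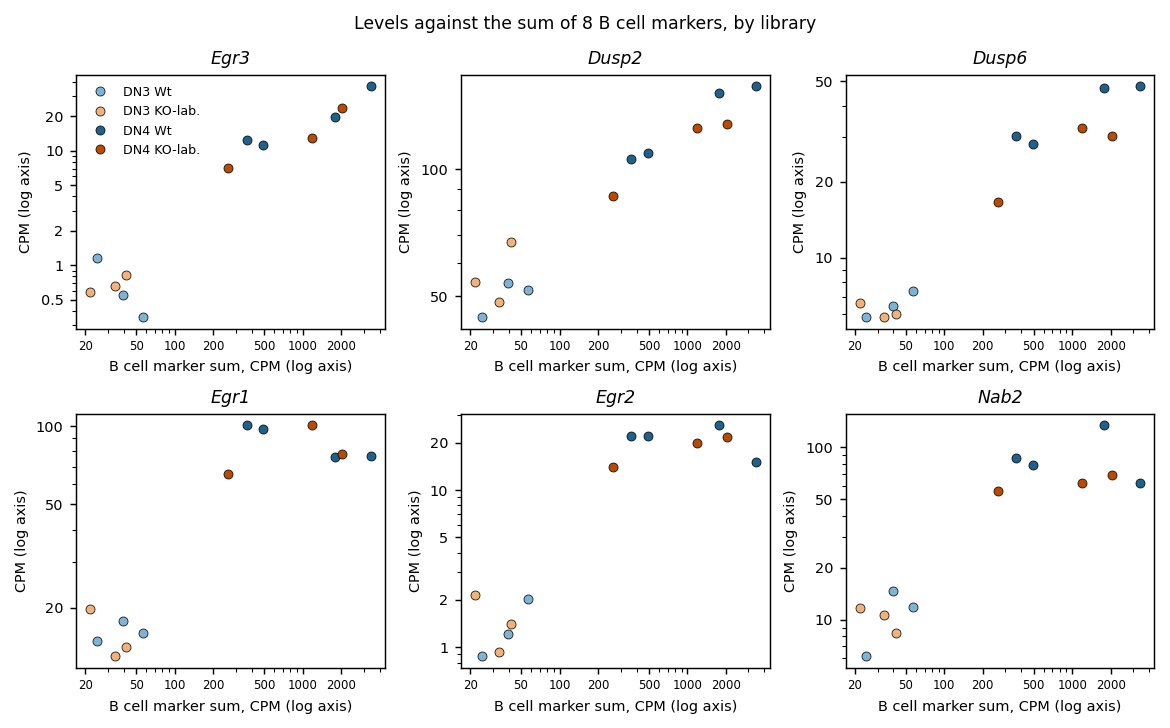
Level of 6 of the genes against the summed CPM of 8 B cell markers, both on log axes, with 1 point per library coloured by group. Among the DN4 libraries Egr3 and Dusp2 climb with the marker sum (r of 0.934 and 0.941), while r is -0.14, 0.12 and 0.14 for Egr1, Egr2 and Nab2.

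Between the genotypes, none of the 10 genes passed the test at either stage. In DN3 cells 9 of them could be tested, all but Egr3, which was too scarce. None of the 9 was called by edgeR, DESeq2 or limma-voom and none had an unadjusted p under 0.05; over all 12105 genes 0.0% were called, with 168 at an unadjusted p under 0.05 and 1 called by DESeq2. The fitted log2 differences of KO-labelled against Wt ranged from -0.14 to 0.17, with a median of 0.02 beside -0.01 over all genes tested. Nab1 was at 46.8, 48.2 and 49.0 CPM in DN3 of KO45, KO49 and KO51, all above the 40.7 to 45.1 CPM of Wt mice, with a log2 difference of 0.15 (SE 0.121, edgeR adjusted p = 1.0). It was the 1 gene of the 9 whose groups did not overlap, which held for 6.44% of all genes. Nab2 had a log2 difference of -0.14 (SE 0.312, edgeR adjusted p = 1.0). Nab2 was picked on its stage contrast in the KO-labelled mice, which favours low DN3 and high DN4 values there. Its genotype tests reuse those libraries and are not independent of that choice.

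In DN4 cells all 10 genes were tested and none was called by edgeR, DESeq2 or limma-voom, against 0.0535% of all 13084 genes by edgeR. The fitted differences were negative for 9 of the 10, with a median of -0.18 on the log2 scale beside -0.01 over all genes, and 1 of the 10 had an unadjusted p under 0.05, as did 726 of all 13084. The median ran from -0.27 to -0.05 with single libraries left out, the latter without KO51. No gene of the marker lists was called in the same comparison, but all 8 B cell markers (median log2 difference -0.35) and all 4 tested γδ T cell genes (-0.58) had negative differences, and 6 of 8 DN3 markers (0.62) and 5 of 7 genes of immature single positive and double positive cells (0.50) positive ones. Of the DN3 markers 3 had an unadjusted p under 0.05, and the part of these cells in the values below was not tested. The gene of the 10 with such a p was Nab1, at 56.3, 56.1 and 52.7 CPM in DN4 of KO45, KO49 and KO51 and at 61.7 CPM or more in every Wt library. Its groups did not overlap, as for 7.08% of all genes, and its log2 difference of -0.28 (SE 0.097) did not pass once adjusted (edgeR quasi-likelihood adjusted p = 0.859). Nab2 was at 55.8 to 69.3 CPM in KO-labelled and 62.3 to 134 CPM in Wt cells, overlapping, with a log2 difference of -0.51 (SE 0.234, edgeR adjusted p = 0.887). The KO-labelled libraries of this test also served to pick Nab2, so the test is not independent of that choice. Dusp6 had -0.50 (SE 0.274, edgeR adjusted p = 0.893) and Dusp10, the only one on the positive side, 0.36 (SE 0.178, edgeR adjusted p = 0.887), both with overlapping groups. With single libraries left out these values ran from -0.65 to -0.26 for Nab2, weakest without WT05, from -0.68 to -0.23 for Dusp6, weakest without KO51, and from 0.19 to 0.50 for Dusp10, weakest without KO45. Egr1 and Egr2 were within 1 SE of 0, at -0.09 (SE 0.171) and -0.18 (SE 0.214). At these errors a difference of the size fitted for Nab2 could not be told from none.

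**Figure D5:**
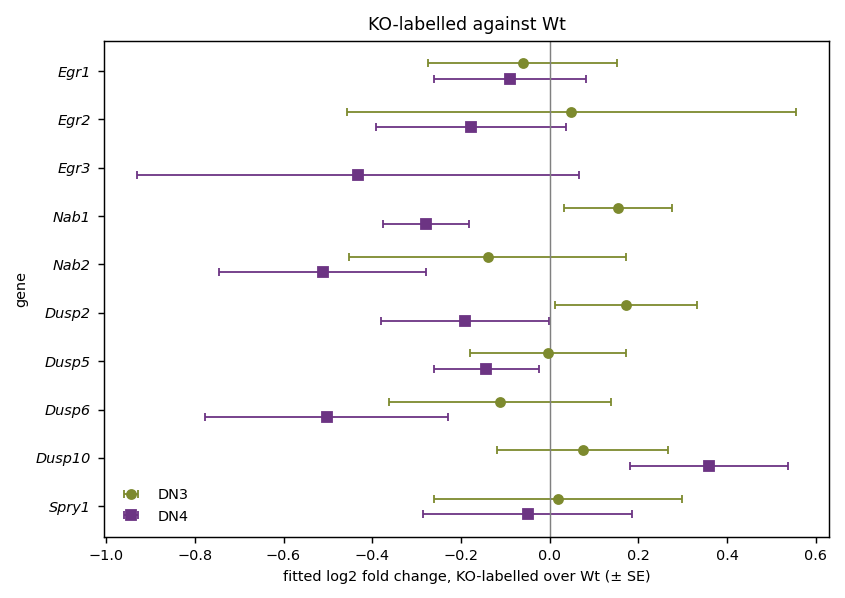
Fitted log2 fold change of KO-labelled against Wt cells for each gene, with standard errors, in DN3 (circles) and DN4 (squares); Egr3 was not tested in DN3. Nab1 lies at 0.15 in DN3 and at -0.28 in DN4, and no gene passes an adjusted p of 0.05 at either stage.

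The other pathway genes gave the same count of 0 by edgeR in both genotype comparisons, over all 7 lists including the heat shock genes. Of the tested immediate early genes, 12 of 13 in DN4 (median log2 difference -0.42) and 13 of 14 in DN3 (-0.48) were negative. All 7 tested heat shock genes were negative at both stages (medians -0.245 in DN4 and -0.146 in DN3). In the Ras and ERK cascade 12 of 21 in DN4 and 11 of 21 in DN3 were negative. What lies behind these signs was not tested. In DN4, 2 of 13 tested immediate early genes, 1 of 5 Sprouty and Spred genes and 1 of 21 genes of the Ras and ERK cascade had an unadjusted p under 0.05, beside 726 of all 13084 genes, and in DN3 none of the listed genes did. Fosl2 (log2 difference -0.80, SE 0.244, edgeR adjusted p = 0.816) and Spry2 (-0.65, SE 0.247, edgeR adjusted p = 0.865), named after their values were seen, were lower in every KO-labelled than in every Wt DN4 library. So were Elk1 (-0.21) and Elk3 (-0.35) of the Ras and ERK cascade, named for the same reason. Over all genes the groups lay apart for 7.08%, so nothing is read from these genes. The signal readouts Cd5 (0.03, SE 0.273) and Cd69 (-0.16, SE 0.256) overlapped between the genotypes in DN4.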

How the data were processed

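The deposited values are read counts per gene, checked to be whole numbers. The authors made them from TruSeq stranded mRNA libraries with Cutadapt, STAR on mm10 and featureCounts; the strand setting is not given in the sources used here. Symbols, exon lengths and coordinates came from GENCODE M21 (GRCm38); 47310 identifiers matched without their version. Genes and lists were chosen with earlier results of these data known.

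Fits used the 2 groups of a comparison alone, in edgeR 4.0.16 (R 4.3.3): filterByExpr with a minimum count of 10, TMM, the quasi-likelihood test and a Benjamini-Hochberg adjusted p under 0.05. Groups came from the labels, 1 mouse being 1 replicate. Opposite-stage libraries of a mouse share the animal (correlation of deviations 0.124 to 0.46 over 13361 genes), so the mouse was also fitted as a block. No 2 libraries were duplicates (chi-squared per degree of freedom at least 5.85). Depth was 5926848 to 14148661 counts.

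Alternatives were other scalings, filters, DESeq2 1.42.0, limma-voom (limma 3.58.1), 1 fit of all libraries, single libraries left out, other thresholds and a B cell marker covariate. The pipeline was tested on simulated data. Named genes are the 10, Opa1, the listed markers, up to 4 called, non-overlapping genes per list and direction, and the 3 nearest profiles (prior count 2), of which 1 is not reported here. Correlations used exact permutation tests (scipy).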

Additional observations from a re-analysis of the deposited data

Results flagged for a closer look

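Nab1 was picked out because its genotype groups lay apart in opposite directions at the 2 stages. All 3 KO-labelled DN3 libraries lay above all 3 Wt DN3 libraries, and all 3 KO-labelled DN4 libraries lay below all 4 Wt DN4 libraries. Groups apart in either direction were found for 6.44% of all genes in DN3 and 7.08% in DN4. The difference between the stage changes of KO-labelled and Wt mice was -0.46 on the log2 scale (SE 0.143). It was not tested, because it contains the stage contrast of the KO-labelled mice that was in view when the genes were chosen, and neither genotype difference passed its own test.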

How the results depend on the processing

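The count of 7 genes higher in DN4 of Wt mice stayed between 5 and 8 under the alternatives run, including 7 with the mouse as a block (paired fit) and 7 whichever library was left out, except for 2 with the B cell marker covariate. It was 6 with library totals or a log2 fold change of at least 1, 5 with 10 counts in every library (10.2% of all genes), which leaves out Egr2 and Egr3, and 8 without the DN4 libraries rich in B cell markers, a choice made after the data were seen. The median log2 fold change of the genes, 1.88, became 1.01 with 10 counts in every library, 1.23 with the covariate and 1.59 without those DN4 libraries. The genotype counts in DN3 and DN4 were 0 under every alternative. The DN4 genotype median of -0.18 ran from -0.27 to -0.05 with single libraries left out. The DN3 genotype median of 0.02 was 0.225 with library totals, which moved the median of all genes to 0.231, -0.12 with the covariate and -0.10 to 0.058 with single libraries left out. Signs that turned belonged to differences near 0: Spry1 between the stages in Wt mice (0.067 with library totals, 0.029 with the covariate, -0.21 to 0.089 with single libraries left out), Nab2 between the genotypes in DN3 (0.017 with library totals, -0.38 to 0.128) and Dusp5 between the stages in KO-labelled mice (-0.055 to 0.18). Their causes were not tested. The block changed no call among the 10 genes. Over all genes, 2903 were called between the stages in Wt mice, against 166 with the covariate, 1724 with a log2 fold change of at least 1, 1766 without the DN4 libraries rich in B cell markers, 1779 with library totals and 1845 to 3393 with single libraries left out; 7 were called between the genotypes in DN4, against 54 by DESeq2, 11 with every gene of 1 count or more and 0 to 8 with single libraries left out. Depth limits Egr3 and Egr2 in DN3 most.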
